A study of Mus musculus with 4 samples.

Results

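The expression of 36 named p53 target and apoptosis genes was followed in mouse embryonic stem cells with and without Trim28, also called KAP1, the chromatin co-repressor recruited by KRAB zinc finger proteins. The genes were taken by name and sorted by role into p53 and its regulators, genes of arrest, repair and stress, pro-apoptotic genes, anti-apoptotic genes and death receptor genes. Of the 36, 33 were measured among 18820 genes compared; Trp53 itself, Gdf15 and Bax were not analysed here.

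p53 is a transcription factor that is stabilised by DNA damage and other stress. It switches on genes that halt the cell cycle, repair DNA or start apoptosis, the programmed death of a cell, and its target Mdm2 marks it for degradation. Apoptosis can start at the mitochondrion, where BH3-only proteins such as Puma and Noxa act on the Bcl2 family, or at the cell surface, where death receptors recruit caspase-8. Mouse embryonic stem cells are known to express much p53 and to be prone to apoptosis.

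The study holds 2 groups of 2 samples each, labelled as biological replicates, with 1 whole-transcript Affymetrix Mouse Gene ST array per sample. The knockout group is labelled KAP1 fl/fl with 4-OH-tamoxifen, which induces the deletion, and the other group is labelled wild type with 4-OH-tamoxifen. The treatment text gives 24 h of the drug or vehicle followed by 48 h without it, and all samples grew on irradiated embryonic fibroblasts; the driver of the recombinase, and whether both groups come from 1 line, are not given in the sources used here. Values are RMA log2 levels, and every change below is knockout minus wild type on that scale. Where lines, clones or drug treatment differed between the groups, that difference and the loss of Trim28 cannot be told apart.

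As a check of the labels, Trim28 levels were 8.97 and 8.92 in the knockout samples and 11.29 and 11.37 in the wild-type samples, a change of -2.38 (SE 0.09, limma adjusted p = 3.39e-05). Of 10 stem cell markers 0 rose and 7 (70%) fell in the knockout at an adjusted p of 0.05. Of all genes 14.2% rose and 12.7% fell. The marker falls were led by Klf4 (-1.34), Esrrb (-1.11), Sox2 (-0.85) and Zfp42 (-0.61). Pou5f1, also among those that fell, read 10.86 and 10.78, against 11.28 and 11.33 in the wild type. Of 21 measured fibroblast markers 15 rose (71.4%, against 14.2% of all genes) and 0 fell (against 12.7%). These rises were led by Acta2 (4.65), Tagln (4.61), Dcn (2.64) and Col1a1 (1.78). The summed linear level of the fibroblast list was 5448 and 6196 in the knockout, against 1799 and 1511 in the wild type. Fap read 2.71 and 2.66 in the knockout, against 2.79 and 2.74 in the wild type. Among the fibroblast markers that did not pass, Fap and Lum lay below the lower quartile of all tested genes in every sample. The others, Loxl1, Thy1, Col6a2 and S100a4, lay above it in every sample. The calls of Klf4, Esrrb and Sox2 were lost without either wild-type sample. The part of these markers in the results below was not tested. In samples of many cells, fewer cells of a type and less RNA per cell cannot be told apart.

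Promoter sequences are shown for 4 genes, chosen after their values were seen, to set the p53 decamer beside the measurements. The full p53 element is built of such decamers, and the letters searched were the exact decamer consensus, which reads the same on both strands. Shown are the 250 bases before the transcript start, 5′ to 3′, from RefSeq for GRCm38.p6, with the decamer in capitals. Ccng1 (chr11:40755287-40755536, minus strand) and Ddit4l (chr3:137623422-137623671, plus strand) hold a decamer and rose. Mdm2 (chr10:117710759-117711008, minus strand) holds one and did not pass the test. Casp8 (chr1:58802252-58802501, plus strand) rose most and has no match in this window.
Ccng1: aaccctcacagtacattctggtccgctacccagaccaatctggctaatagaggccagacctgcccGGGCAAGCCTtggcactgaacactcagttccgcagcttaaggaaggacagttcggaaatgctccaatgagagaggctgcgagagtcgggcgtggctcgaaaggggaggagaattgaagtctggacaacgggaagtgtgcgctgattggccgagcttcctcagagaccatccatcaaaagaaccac
Ddit4l: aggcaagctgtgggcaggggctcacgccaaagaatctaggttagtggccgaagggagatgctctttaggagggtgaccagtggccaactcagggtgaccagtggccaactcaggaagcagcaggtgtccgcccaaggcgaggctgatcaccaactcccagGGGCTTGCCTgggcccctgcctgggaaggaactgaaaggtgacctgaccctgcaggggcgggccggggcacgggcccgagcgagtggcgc
Mdm2: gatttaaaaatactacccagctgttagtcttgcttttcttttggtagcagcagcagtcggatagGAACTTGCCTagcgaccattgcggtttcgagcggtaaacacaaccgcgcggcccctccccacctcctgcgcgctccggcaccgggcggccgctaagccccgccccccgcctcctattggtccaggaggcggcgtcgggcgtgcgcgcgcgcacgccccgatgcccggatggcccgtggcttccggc
Casp8: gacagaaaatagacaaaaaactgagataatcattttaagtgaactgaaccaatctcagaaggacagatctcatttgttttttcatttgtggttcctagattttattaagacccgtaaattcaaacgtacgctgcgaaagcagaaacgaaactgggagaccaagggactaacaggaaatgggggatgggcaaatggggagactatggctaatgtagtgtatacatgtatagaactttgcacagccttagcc

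Across windows of 300 bases, from 250 before to 50 after the start, a decamer stood in 8.36% of all 32851 windows and in at least 1 window of 9.55% of 27025 genes. Of the 27 measured genes of the network with a window, 8 (29.6%) held one. The 8 were 2 of the 12 genes that rose (Ccng1 and Ddit4l) and 6 of the 14 that did not pass the test (Mdm2, Aen, Ei24, Sesn1, Polk and Gtse1). Plk3, the gene that fell, held 0. A match is a description of these letters only, and no match says nothing about sites elsewhere in the gene. Zmat3, Tnfrsf10b, Perp, Rrm2b, Pmaip1 and Trp53inp1 were not searched.

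Of the 33 measured genes 17 rose and 1 fell in the knockout, by limma with Benjamini-Hochberg adjustment over all 18820 genes and a threshold of 0.05. Rises thus made up 51.5% of the list, against 14.2% of all genes, and falls 3.03%, against 12.7% of all genes. The median change was 0.47 for the list and -0.05 for all genes. The summed linear level of the list was 12337 and 13680 in knockout replicates 1 and 2, against 10619 and 9410 in the wild type. Knockout replicate 2 was the highest sample for every gene that rose except Btg2. How often that sample was the highest among all genes that rose was not counted, so the pattern is not shown to be particular to the list. Whether the rises depend on each other was not tested. They come from the same samples and are not separate results. Both knockout samples lay above both wild-type samples for 25 of the 33 (75.8%, against 26.6% of all genes) and below them for 4 (12.1%, against 38.6%). In all, the groups did not overlap for 29 of the 33, against 65.2% of all genes, and overlapped for Trp73, Gtse1, Rrm2b and Casp1. The genes were chosen with earlier results of these data known, so these shares describe the list and are no independent evidence of its direction. Of these, 5 rises reached 2-fold or more (4.44% of all genes did) and so did 1 fall (1.46% of all genes). The rises were Casp8, Tnfrsf10b, Dcxr, Plk2 and Ddit4l, and the fall was that of Plk3.

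**Figure D1:**
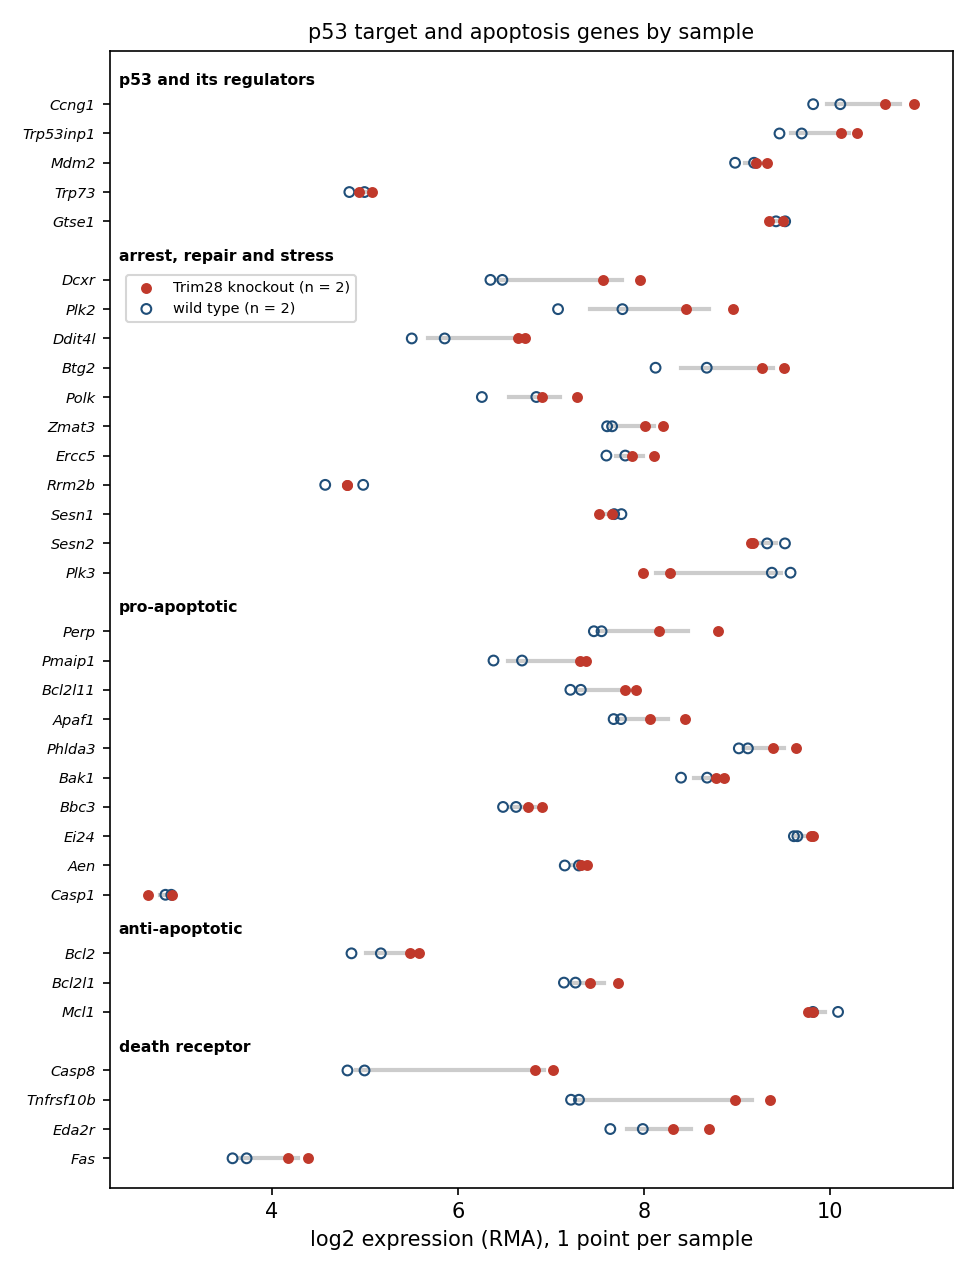
Log2 expression of the 33 measured genes, grouped by role, with 1 point per sample (filled, knockout, n = 2; open, wild type, n = 2) and a grey line between the group means. The widest gaps are those of Casp8 and Tnfrsf10b, to the right in the knockout, and Plk3 stands out to the left.

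The death receptor genes were the group in which all measured members rose, with a median change of 1.30. The count was 4 of 4 (100%, against 14.2% of all genes). With 4 genes this count is no result about the group. In a further list of death receptor signalling, 3 of 15 measured genes rose and 3 fell (20% each way). Casp8, the initiator caspase that death receptors recruit, read 6.83 and 7.02 in the knockout samples, against 4.996 and 4.81 in the wild-type samples. This was the largest rise of the network, 2.02 on the log2 scale (SE 0.11, 95% confidence interval 1.75 to 2.29, limma adjusted p = 9.35e-05), a 4.06-fold higher level. Tnfrsf10b, which encodes the mouse receptor of the death ligand TRAIL, read 8.97 and 9.35 in the knockout, against 7.21 and 7.30 in the wild type. Its change was 1.90 (SE 0.14, interval 1.58 to 2.23, adjusted p = 0.000208), 3.74-fold. In both genes the groups lay further apart than their samples did. The 20 tested genes next to Tnfrsf10b on chromosome 14 had a median change of 0.50, with 10 higher and 0 lower; the part of this stretch in its rise was not tested. The 20 neighbours of Casp8 on chromosome 1 had a median change of -0.02, with 2 higher and 2 lower.

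Eda2r, an X-linked receptor of the ectodysplasin A2 ligand and a known p53 target, read 8.31 and 8.70 in the knockout, against 7.98 and 7.64 in the wild type (change 0.70, SE 0.17, adjusted p = 0.0229). Fas, the receptor of Fas ligand, read 4.17 and 4.38 in the knockout, against 3.58 and 3.73 in the wild type (change 0.63, SE 0.11, adjusted p = 0.00764). The groups did not overlap for either gene, and the wild-type values of Fas lay below the lower quartile of tested genes (3.80 and 3.79). The 20 tested genes next to Fas on chromosome 19 had a median change of 0.19, with 6 higher and 0 lower. For the 20 next to Eda2r the median was 0.11, with 5 higher and 0 lower. The part of these stretches in the 2 rises was not tested. The calls of Eda2r and Fas were lost in some fits with 1 sample left out. Eda2r then changed by 0.50 without knockout replicate 2, and by 0.87 or 0.52 without wild-type replicate 1 or 2. Fas changed by 0.55 without wild-type replicate 1. Such fits hold fewer samples and call fewer genes, so a lost call does not show that the change rests on that sample. The call count of the death receptor group was 2 without wild-type replicate 1.

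Among 10 measured pro-apoptotic genes 5 rose (50%, against 14.2% of all genes) and 0 fell (against 12.7%), with a median change of 0.36. Perp, a membrane protein of desmosomes that p53 can induce, read 8.15 and 8.79 in the knockout, against 7.54 and 7.46 in the wild type, a change of 0.97 (SE 0.20, adjusted p = 0.0119). The knockout samples differed from each other by more than the wild-type samples did. The 20 tested genes next to Perp on chromosome 10 had a median change of 0.11, with 5 higher and 2 lower. The part of this stretch in its rise was not tested. Pmaip1, which encodes the BH3-only protein Noxa, read 7.31 and 7.38 in the knockout, against 6.69 and 6.38 in the wild type. Its change of 0.81 (SE 0.12, adjusted p = 0.00382) corresponds to a 1.75-fold higher level. Bcl2l11, the gene of the BH3-only protein Bim, read 7.79 and 7.91 in the knockout, against 7.32 and 7.21 in the wild type (change 0.59, SE 0.10, adjusted p = 0.00558). The groups did not overlap for Pmaip1 or Bcl2l11, and the wild-type samples of Pmaip1 lay further apart than its knockout samples.

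Apaf1, the scaffold of the apoptosome, read 8.06 and 8.44 in the knockout, against 7.75 and 7.67 in the wild type (change 0.54, adjusted p = 0.0279). Phlda3, a pleckstrin-homology protein that restrains Akt, read 9.38 and 9.63 in the knockout, against 9.11 and 9.02 in the wild type (change 0.44, adjusted p = 0.0308). As for every gene of the list that rose except Btg2, knockout replicate 2 was the highest sample for both genes. Without it their adjusted p was 0.0957 and 0.138. These 2 calls were also lost without either wild-type sample, and that of Perp was lost without wild-type replicate 1 (0.0910) or 2 (0.112). Without wild-type replicate 2, Bcl2l11 had an adjusted p of 0.0559, and only Pmaip1 of the pro-apoptotic genes passed.

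The other 5 pro-apoptotic genes did not pass. Bbc3, the gene of the BH3-only protein Puma and a classical p53 target, read 6.91 and 6.75 in the knockout, against 6.62 and 6.48 in the wild type, a change of 0.28 with an interval of 0.03 to 0.53 (adjusted p = 0.102). Bak1, which forms pores in the mitochondrial membrane, read 8.77 and 8.86 in the knockout, against 8.40 and 8.68 in the wild type (change 0.28, adjusted p = 0.138). Its second, dimmer probe set went the other way, with 4.81 and 4.88 in the knockout, against 5.26 and 5.41 in the wild type. Where that probe set stood for the gene the change was -0.49 (adjusted p = 0.0125), so the array gives no single direction for Bak1. Ei24, an endoplasmic reticulum protein induced by p53, changed by 0.18 (interval -0.03 to 0.39) and Aen, a nuclease that promotes apoptosis, by 0.13 (interval -0.10 to 0.37). The inflammatory caspase gene Casp1 read 2.67 and 2.93 in the knockout, against 2.92 and 2.86 in the wild type, all below the lower quartile of tested genes.

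Of the 3 anti-apoptotic genes 1 rose (14.2% of all genes did) and 0 fell (12.7% of all genes did). With 3 genes these counts are no result about the group. Bcl2 read 5.48 and 5.58 in the knockout, against 4.86 and 5.17 in the wild type (change 0.51, SE 0.13, adjusted p = 0.0243). A second Bcl2 probe set read 3.79 and 3.77 in the knockout, against 3.99 and 3.88 in the wild type, and with it in place of the first the change was -0.16 (adjusted p = 0.279). The rise of Bcl2 therefore holds for 1 of its 2 probe sets; without knockout replicate 2 or wild-type replicate 1 it also missed the threshold (adjusted p = 0.0814 and 0.116). Bcl2l1, the gene of Bcl-xL, read 7.42 and 7.72 in the knockout, against 7.14 and 7.26 in the wild type. Its change of 0.37 (interval 0.07 to 0.67) missed the threshold at an adjusted p of 0.0726, and passed with the replicate number as a block (adjusted p = 0.0419). Mcl1, the short-lived survival factor, read 9.81 and 9.76 in the knockout, against 10.08 and 9.81 in the wild type (change -0.16, adjusted p = 0.356).

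**Figure D2:**
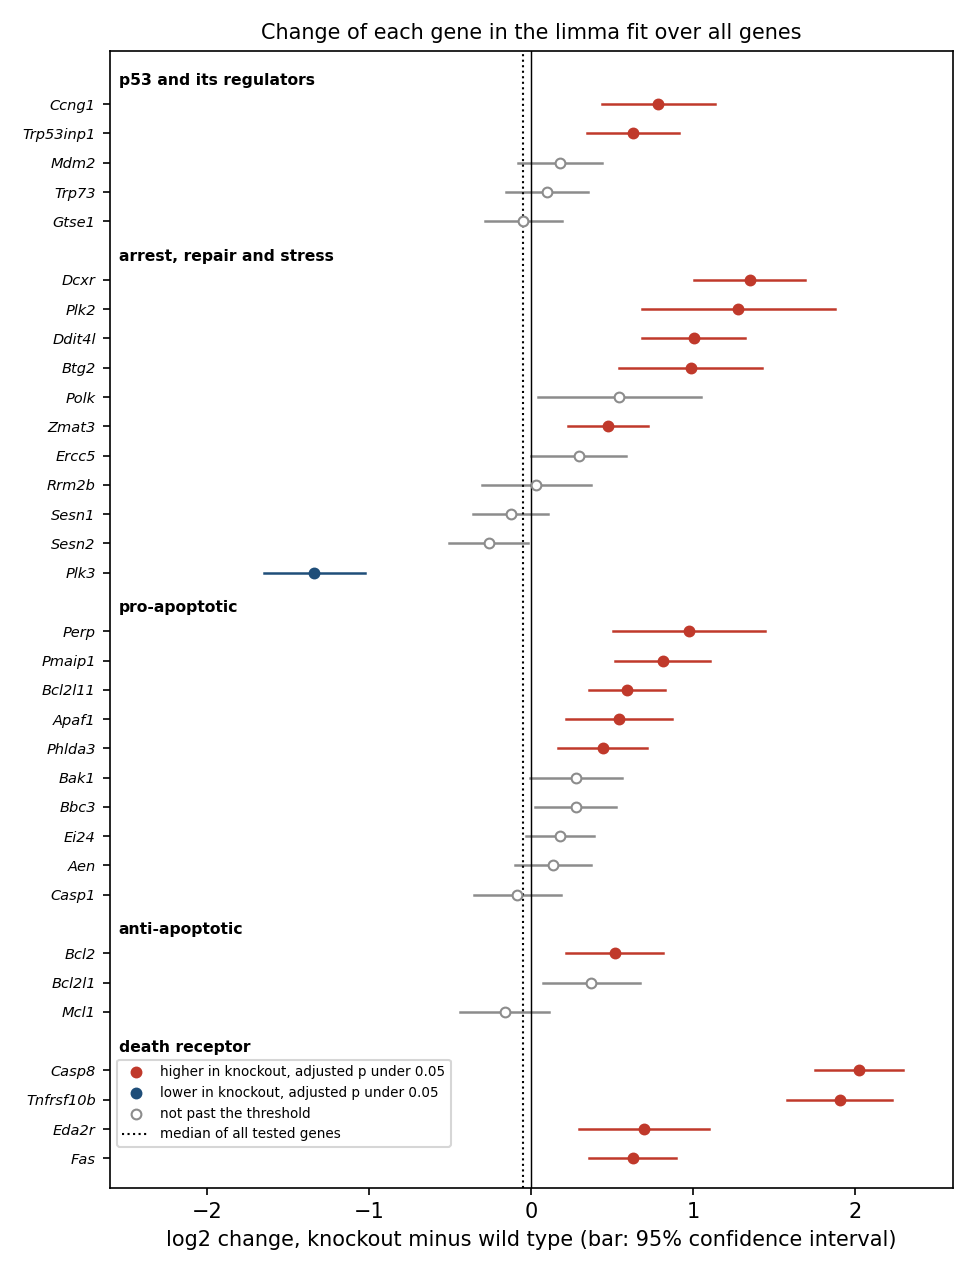
Log2 change, knockout minus wild type, of the 33 measured genes by role, with 95% confidence intervals from the limma fit over all genes; filled points passed the threshold and the dotted line is the median of all genes (-0.05). The 4 death receptor genes lie to the right of 0 with Casp8 and Tnfrsf10b furthest out, and Plk3 is the filled point to the left.

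Among 11 measured genes of arrest, repair and stress 5 rose (45.5%, against 14.2% of all genes) and 1 fell (9.09%, against 12.7%). Their median change was 0.47. Dcxr, a dicarbonyl and xylulose reductase, read 7.56 and 7.96 in the knockout, against 6.48 and 6.35 in the wild type. Its change was 1.35 (SE 0.14, adjusted p = 0.000963), a 2.55-fold higher level. Plk2, a polo-like kinase induced by stress, read 8.44 and 8.95 in the knockout, against 7.77 and 7.07 in the wild type (change 1.28, SE 0.25, adjusted p = 0.0105). Its samples were the most widely spread of the group, and without wild-type replicate 2 the change was 0.93 (adjusted p = 0.0752). Ddit4l, an inhibitor of the growth kinase complex mTORC1, read 6.64 and 6.72 in the knockout, against 5.86 and 5.50 in the wild type (change 1.00, SE 0.13, adjusted p = 0.00218). Btg2, an antiproliferative adaptor of the mRNA deadenylase complex, read 9.50 and 9.27 in the knockout, against 8.67 and 8.12 in the wild type (change 0.99, SE 0.18, adjusted p = 0.00896). All knockout values of these 4 genes stood above all wild-type values.

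Zmat3, an RNA-binding zinc finger protein induced by p53, read 8.01 and 8.20 in the knockout, against 7.65 and 7.60 in the wild type (change 0.47, SE 0.10, adjusted p = 0.0156). Its call was lost without knockout replicate 2 (adjusted p = 0.0742), wild-type replicate 1 (0.0790) or wild-type replicate 2 (0.103). Plk3, another stress-responsive polo-like kinase, was the gene that fell, with 8.28 and 7.98 in the knockout, against 9.57 and 9.37 in the wild type. The change was -1.34 (SE 0.13, interval -1.65 to -1.03, adjusted p = 0.000671), a 2.53-fold lower level. Plk2 and Plk3, of 1 kinase family, thus passed the test in opposite directions. The 20 tested genes next to Plk3 on chromosome 4 had a median change of -0.38, with 2 higher and 12 lower; the part of this neighbourhood in its fall was not tested. The 20 neighbours of Plk2 on chromosome 13 had a median change of -0.14, with 2 higher and 4 lower.

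The repair genes of this group did not pass. Polk, a translesion DNA polymerase, read 6.90 and 7.28 in the knockout, against 6.84 and 6.26 in the wild type (change 0.54, adjusted p = 0.106). It passed when knockout replicate 1 was left out (adjusted p = 0.0486). Ercc5, the XPG endonuclease of nucleotide excision repair, changed by 0.29 (interval 0.00 to 0.59, adjusted p = 0.131). Rrm2b, the p53-inducible subunit of ribonucleotide reductase, read 4.81 and 4.81 in the knockout, between the wild-type values of 4.57 and 4.98. The sestrin genes, which restrain mTORC1 under stress, had values below the wild type. Sesn2 read 9.16 and 9.14 in the knockout, against 9.51 and 9.32 in the wild type (change -0.26, interval -0.51 to -0.02, adjusted p = 0.107), and Sesn1 changed by -0.13 (interval -0.36 to 0.11).

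Of 5 measured regulators of p53, 2 rose (40%, against 14.2% of all genes) and 0 fell (against 12.7%), with a median change of 0.18. With so few genes these counts are no result about the group. Ccng1, the gene of cyclin G1 and a strong p53 target, read 10.59 and 10.90 in the knockout, against 10.11 and 9.81 in the wild type. Its change was 0.78 (SE 0.15, adjusted p = 0.00880), 1.72-fold. Trp53inp1, a stress-induced partner of p53, read 10.12 and 10.28 in the knockout, against 9.69 and 9.45 in the wild type (change 0.63, SE 0.12, adjusted p = 0.00911). The groups did not overlap for either gene. Without wild-type replicate 2 both missed the threshold, with changes of 0.64 for Ccng1 and 0.51 for Trp53inp1. The 20 tested genes next to Trp53inp1 on chromosome 4 had a median change of 0.17, with 6 higher and 1 lower. The part of this stretch in its rise was not tested.

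Mdm2, the ubiquitin ligase that p53 induces and that degrades it, read 9.20 and 9.31 in the knockout, against 9.18 and 8.98 in the wild type. Its change of 0.18 had an interval of -0.08 to 0.44 (adjusted p = 0.284), which met that of Ccng1 (0.43 to 1.13). The difference between the changes of Mdm2 and Ccng1 was not tested. Trp73, a p53 paralog, read 4.94 and 5.08 in the knockout, against 4.995 and 4.83 in the wild type. Gtse1, which restrains p53 in the G2 phase, read 9.49 and 9.34 in the knockout, against 9.51 and 9.42 in the wild type. The groups overlapped for both Trp73 and Gtse1.

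**Figure D3:**
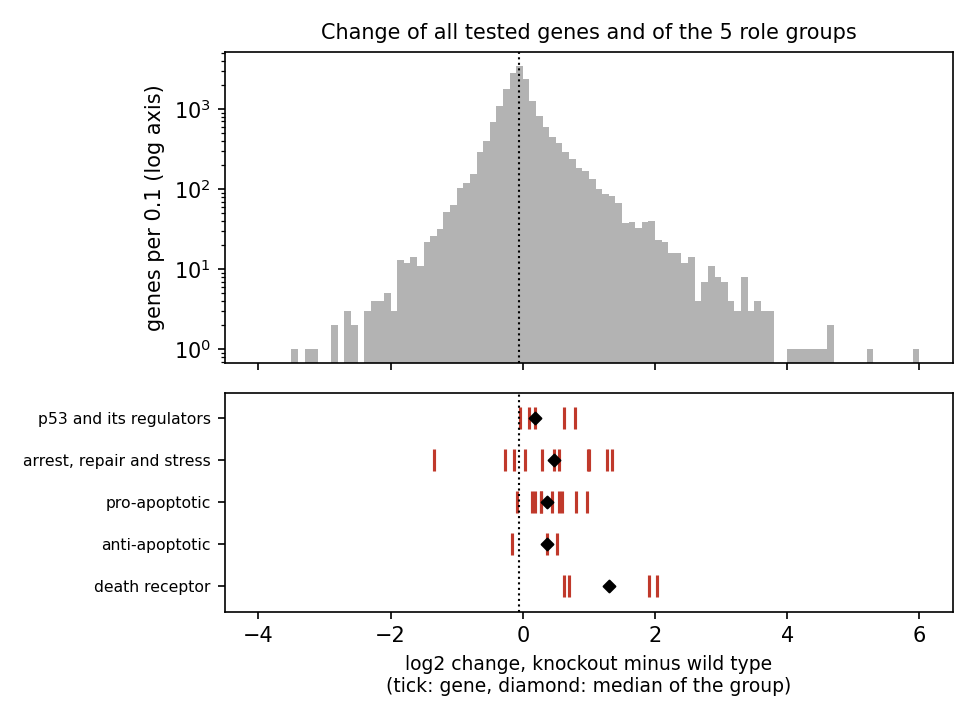
Histogram of the log2 change, knockout minus wild type, over all 18820 genes on a log axis of counts, above the changes of the measured genes of each role group (ticks) and the group medians (diamonds). The dotted line is the median of all genes (-0.05); the group medians run from 0.18 for the p53 regulators to 1.30 for the death receptor genes.

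The choice of scale bears on the smaller changes. Over all probe sets the medians were 4.76 and 4.77 on the knockout arrays and 4.76 and 4.75 on the wild-type arrays. Subtracting those left 17 rises and 1 fall in the list (13.8% higher and 13.8% lower of all genes). Quantile normalization once more also gave 17 and 1 (14% and 13.5% of all genes). A scale taken from the tested genes alone gave other counts. The medians over the tested genes were 5.66 and 5.63 on the knockout arrays and 5.46 and 5.48 on the wild-type arrays. With these medians subtracted the median change of all genes was -0.22 in place of -0.05 and that of the list 0.30. Then 13 genes of the list rose and 3 fell, against 11.0% higher and 34.0% lower of all genes. Zmat3, Apaf1, Phlda3 and Bcl2 no longer passed as rises, and Sesn1 and Sesn2 (-0.30 and -0.43) passed as falls. Mdm2 then had a change of 0.0092, and the uncalled changes of Trp73, Rrm2b and Aen were below 0. Casp8, Tnfrsf10b, Dcxr, Btg2, Ddit4l, Pmaip1 and Plk3 kept their direction and their call under this scaling and under the other alternatives without a fold limit.

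The count of rises varied when single samples were left out. It was 19 when knockout replicate 1 was left out and 12 when knockout replicate 2 was. It was 10 when wild-type replicate 1 was left out and 8 when wild-type replicate 2 was. The share of all genes called higher in these fits was 12.8%, 11.8%, 8.76% and 8.13%. Each such fit sets 2 samples against 1, and the lone sample is assumed to vary like the other group. These fits call fewer genes, so a lost call does not by itself show that a change rests on the sample left out. Of the 18 genes called, 7 kept their call without each sample in turn and 11 lost it at least once.

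**Figure D4:**
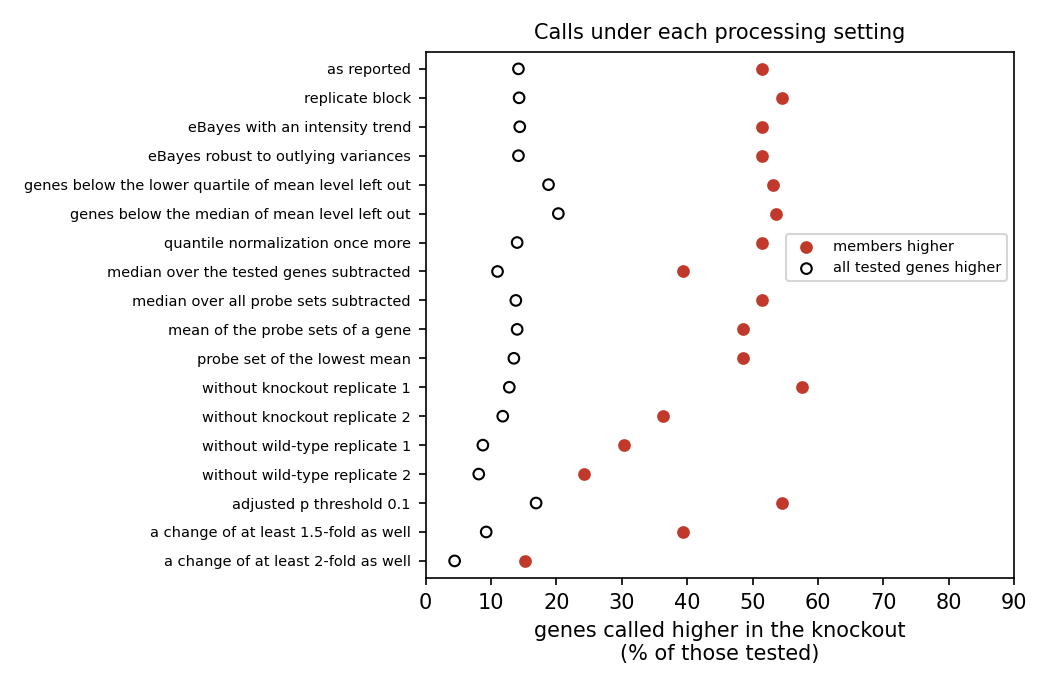
Percentage of genes called higher in the knockout under each processing setting, for the measured genes of the network (filled) and for all tested genes (open). The share of the network stays to the right of that of all genes in every setting drawn, and moves furthest left without wild-type replicate 2 and with the 2-fold limit.

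Other genes of the pathway went both ways. Of 22 measured further p53 targets 8 rose (36.4%, against 14.2% of all genes) and 5 fell (22.7%, against 12.7%), with a median change of 0.06, against -0.05 for all genes. Tap1, an antigen peptide transporter also induced by interferon, changed by 2.36 (adjusted p = 5.75e-05), and Ddit4, an inhibitor of mTORC1, by 1.35. Cdkn1a, the p21 inhibitor through which p53 arrests the cell cycle, read 9.59 and 9.58 in the knockout, against 8.54 and 8.21 in the wild type (change 1.21, SE 0.12, adjusted p = 0.000824). Sfn, the gene of 14-3-3 sigma, rose by 1.16. Gadd45a, a stress sensor of growth arrest and repair, read 8.04 and 8.04 in the knockout, against 8.70 and 8.86 in the wild type (change -0.74, SE 0.10, adjusted p = 0.00214). The other falls were those of Tob1 (-0.59), Trp53i11 (-0.49), Tigar (-0.47) and Steap3 (-0.41), and each of these 4 calls was lost with at least 1 sample left out (adjusted p up to 0.0787, 0.144, 0.0662 and 0.174). Steap3 also missed the threshold with the replicate number as a block (limma adjusted p = 0.0504). The neighbours of Steap3 on chromosome 1 had a median change of -0.41, and their part in its fall was not tested. Of 20 upstream regulators and cofactors 3 rose (15%, against 14.2% of all genes) and 7 fell (35%, against 12.7%), with a median of -0.21. The share of rises lay near that of all genes and is no result about the list. The lysine methyltransferase gene Setd7 rose by 2.15 (adjusted p = 0.000275) and Cdkn2a, whose ARF product inhibits Mdm2, by 0.76. Mdm4, a partner of Mdm2 that inhibits p53, read 8.13 and 7.76 in the knockout, against 8.91 and 8.39 in the wild type (change -0.71, adjusted p = 0.0381), and missed the threshold without knockout replicate 2 (0.126) or wild-type replicate 1 (0.196). Prkdc, the catalytic subunit of DNA-dependent protein kinase, fell by 0.65 (adjusted p = 0.00470; 0.0510 without wild-type replicate 1).

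In 3 further lists of apoptosis genes the shares called lay near those of all genes (14.2% higher and 12.7% lower), so their counts are no result about these genes. Of 11 measured further Bcl2 family genes 1 rose (Bcl2l13, 0.61; 9.09%) and 2 fell (Hrk, -0.55, and Bcl2l10, -0.47; 18.2%), and each of these calls was lost without at least 1 wild-type sample. Of 13 measured genes of the caspase cascade and its inhibitors 2 rose and 2 fell (15.4% each way), with a median of -0.05, the value of all genes. Casp12 read 3.63 and 3.58 in the knockout, against 2.83 and 2.50 in the wild type, below the lower quartile of tested genes in all samples. Casp6, an executioner caspase, rose by 0.80 (adjusted p = 0.00223). Aifm1, a mitochondrial flavoprotein, fell by 0.47 and Dffb, the nuclease that cuts DNA in apoptosis, by 0.43; each missed the threshold with at least 1 sample left out (adjusted p up to 0.111 and 0.220). Of 15 measured genes of death receptor signalling 3 rose and 3 fell (20% each way), with a median of 0.03. Tnfrsf1a, a receptor of tumour necrosis factor, changed by 1.02 (adjusted p = 0.0163), Ngfr by -0.66, Dedd by -0.60 and Tnfrsf21 by 0.54. Without wild-type replicate 1 the changes of Tnfrsf1a, Ngfr and Tnfrsf21 were 0.83, -0.65 and 0.53. Without wild-type replicate 2 they were 1.21, -0.67 and 0.55. The calls of these genes were lost in both fits, and Dedd kept its call. Fadd, the adaptor between death receptors and Casp8, changed by -0.01 and the ligand genes Fasl and Tnfsf10 by 0.04 and -0.05, none of them past the test; these 3 were chosen after their values were seen.

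**Figure D5:**
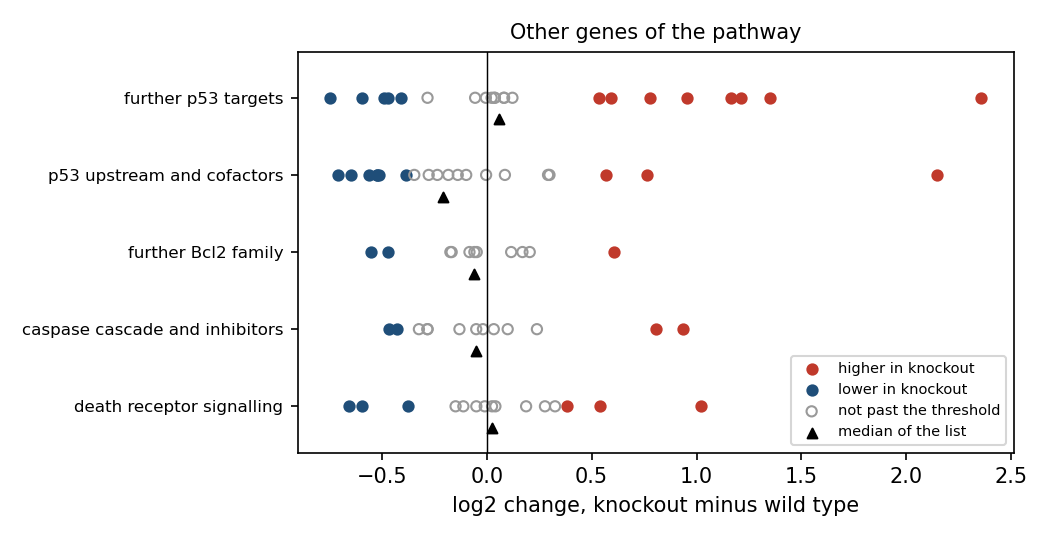
Log2 change, knockout minus wild type, of the measured genes of 5 further lists, coloured by call, with the median of each list as a triangle. The medians lie between -0.21 and 0.06, and the rises of Tap1 and Setd7 stand furthest to the right.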

How the data were processed

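Total RNA (250 ng per sample) was put on Mouse Gene ST arrays of Affymetrix, per the labels' protocols. The deposited log2 values, for 35556 probe sets, come from RMA, run by the authors in affy according to the submitters' processing notes. Versions and detection calls are not given in the sources used here. Signal over background is therefore not known, and the number of arrays limits the precision. They were used as deposited. Probe sets with 1 gene symbol in the platform annotation (21218, of which 21185 matched a GRCm38.p6 gene identifier) were kept, and the one with the highest mean per gene was used, with no filter on dim genes. The groups were compared in limma 3.58.1 under R 4.3.3 (lmFit, eBayes, two-sided, Benjamini-Hochberg over all genes). A run on simulated data with independent noise checked the code only and says nothing about these samples. Neighbours were the 10 tested genes on each side in RefSeq order. All 36 genes of the list were named in the text whatever their values, with Trim28 and up to 4 called genes of largest change from each further list; other genes were picked with their values in view. The members and lists were chosen with earlier results of these data known. The replicate numbers come from the sample titles and nothing ties equal numbers to a shared source; the p-values measure the spread between these samples, which may be technical.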

Additional observations from a re-analysis of the deposited data

How the results depend on the processing

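Over all genes 5071 passed the threshold. The count was 8457 with the medians of the tested genes subtracted, 2712 with a limit of 1.5-fold, 1109 with one of 2-fold, and 2430 to 4350 with 1 sample left out at a time. Rises made up 24.4% of calls with medians subtracted, against 52.8% as deposited. Among the 33 measured genes the rises numbered 17, 5 with the 2-fold limit, and 8 to 19 with 1 sample left out; the falls numbered 1, 3 with medians subtracted and 2 where the probe set of the lowest mean was used. The replicate number as a block gave 18 rises and 1 fall and 5093 calls over all genes; the differences between replicates of the 2 groups correlated at 0.145 over tested genes, which with 2 numbers does not show that they are paired. The sign turned for Trp73 (-0.074), Rrm2b (-0.14) and Aen (-0.035) with medians subtracted, for Bak1 with the mean of its probe sets (-0.10) or the dimmer one (-0.49), and for Bcl2 with the dimmer one (-0.16). With 1 sample left out, Gtse1 ranged from -0.12 to 0.025, Rrm2b from -0.17 to 0.24 and Casp1 from -0.21 to 0.041. Over the genes of the list and Trim28, 462 single-gene comparisons with an alternative kept direction and side of the threshold, 26 lost a call, 6 gained one and 10 changed sign; the cause was not tested.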

Other observations

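Some genes of the pathway share their probe sets with a neighbouring gene and entered no comparison. The 2 probe sets listed for Ddb2, a DNA damage sensor, together with Acp2 moved in opposite directions. One read 6.96 and 7.10 in the knockout samples, against 6.56 and 6.56 in the wild-type samples, and the other read 5.89 and 5.64 in the knockout, against 6.28 and 6.46 in the wild type. The brighter probe set listed for Diablo, an antagonist of caspase inhibitors, with B3gnt4 read 7.61 and 7.41 in the knockout, against 7.66 and 7.91 in the wild type. A probe set listed for Zmat3 with another gene read 5.60 and 5.82 in the knockout, against 5.48 and 5.49 in the wild type, so that both knockout samples stood above both wild-type samples there, as they did in the probe set of Zmat3 alone.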
